A study of Danio rerio with 19 samples.

Results

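The chromosome 19 region is a set of 7 cytosine positions, all listed as CpGs by the submitters, between 27019198 and 27019584 on GRCz11, a stretch of 387 bp of the zebrafish genome. The positions were chosen by their place in this interval and by coverage, with at least 10 reads in at least 5 ovaries and 5 testes. Of the 15 positions listed in the interval, 7 met that rule, and the whole series held 150 such positions in 9 regions. The interval itself was chosen on its lower methylation in ovaries, so every ovary-to-testis difference below is a description without a test. No gene is named here, because the sources used here pair these coordinates with no gene and a GRCz11 annotation was not used.

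The study set gonads of the sexes side by side. The groups were ovaries of 9 fish and testes of 10 fish, all of the AB laboratory strain, 90 days old and reared under control conditions with no other treatment. Each library came from the gonad of 1 fish, and the labels do not say whether fish shared a clutch. Total calls per fish ran from 488594 to 2235082, of which the 7 positions held 5.20% over all fish. No 2 of the 19 fish agreed within the noise of read counting, either here or over all regions. That noise leaves out PCR duplicates, which amplicon counts can carry.

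A CpG is a cytosine followed by a guanine, and in vertebrates most cytosines at CpGs carry a methyl group that maintenance enzymes copy at each cell division. Dense methylation of regulatory DNA is commonly found at silent genes. In zebrafish, sperm DNA is known to be more methylated than oocyte DNA at many loci, and adult gonads hold germ cells of many stages together with somatic cells. Bisulfite treatment converts unmethylated cytosine and spares methylated cytosine, so the percentage of reads that keep C is the methylation level. In such bulk tissue, fewer methylated cells and fewer methylated alleles per cell cannot be told apart.

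The region held 2 kinds of position. At 6 of the 7, most reads were methylated in testes and a smaller share in ovaries. At the remaining one, 27019282, hardly any read was methylated in most fish of either sex, although it lies 3 bp after the highly methylated 27019279. Whether 27019282 is a CpG in the reference genome was not checked, nor whether these fish carry a sequence variant there. Over all 7 positions, the level per fish averaged 65.8% ± 3.47 in ovaries and 82.5% ± 0.505 in testes (SD, n = 9 and 10). Over the 6 methylated positions the level was 70.7% in the lowest ovary, 76.2% in the median and 80.6% in the highest. The same mean was 95.3% in the lowest testis, 96.2% in the median and 97.2% in the highest. The groups did not overlap, and the difference of the means was -20.0 percentage points.

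**Figure D1:**
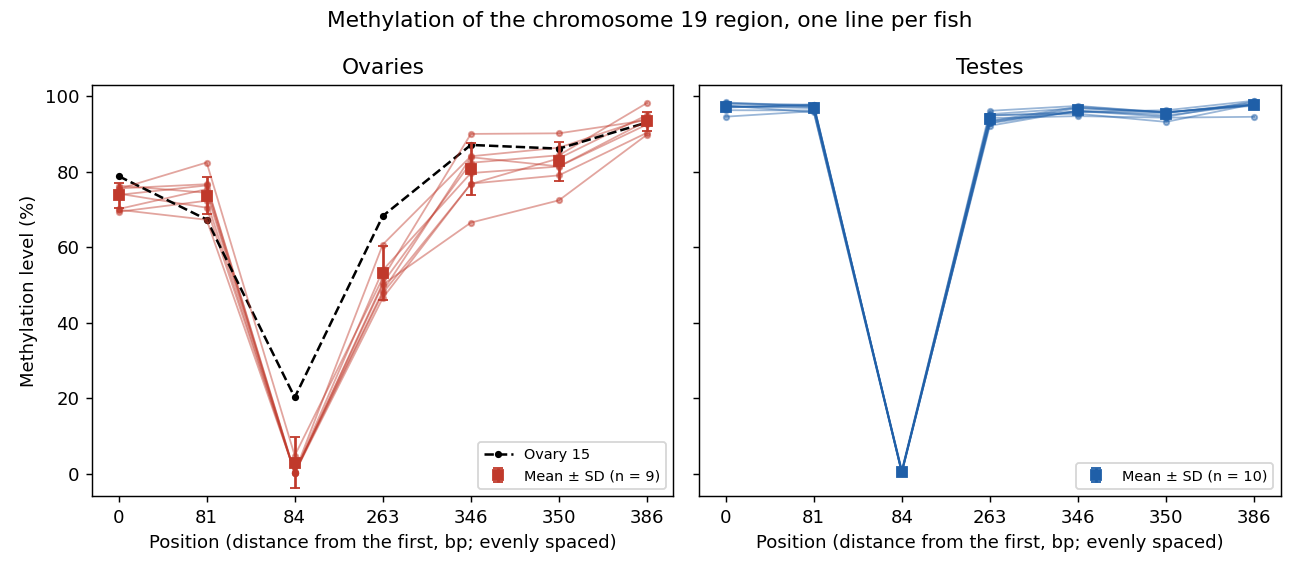
Methylation level in percent (y axis) at each of the 7 positions (x axis, evenly spaced and labelled with the distance in bp from the first), ovaries left and testes right. Each line is 1 fish, squares with bars are means ± SD, and the dashed black line is ovary 15. Ovaries dip to a mean of 53.1% at 263 bp, where testes average 94.0%, and in both panels the position at 84 bp is at most 4.77% in every fish except ovary 15, with 20.2%.

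The middle position, 27019461, carried the widest difference. Its level was 46.6% in the lowest ovary, 50.5% in the median and 68.3% in the highest, which was ovary 15. In testes the lowest was 92.2%, the median 93.8% and the highest 96.1%. A gap of 23.9 points separated the lowest testis from the highest ovary. The means were 53.1% ± 7.06 in ovaries and 94.0% ± 1.25 in testes (SD, n = 9 and 10), a difference of -40.9 points. This single position made up 34.1% of the differences summed over the 6 methylated positions. Without ovary 15 the remaining ovaries averaged 51.2% ± 4.48 (SD, n = 8).

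The first positions of the region differed less, and nearly equally. At 27019198 ovaries had 69.4% at the lowest, 74.2% at the median and 78.8% at the highest, against 94.6%, 97.4% and 98.4% in testes. At 27019279, which lies 81 bp further on, the corresponding ovary levels were 67.3%, 74.4% and 82.4%, against 95.7%, 97.2% and 97.8% in testes. All ovaries lay below all testes at both positions. The differences of the means were -23.4 points at each, or 19.5% of the summed difference apiece.

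Beyond the middle position the sexes drew together step by step. At 27019544 the level ran from 66.5% (ovary 5) over a median of 82.4% to 90.02% (ovary 18) in ovaries, and from 94.7% over 96.2% to 97.4% in testes. All ovaries again lay below all testes, by 4.72 points at the nearest, with means of 80.8% ± 6.94 in ovaries and 96.3% ± 0.854 in testes (SD, n = 9 and 10). At 27019548 it ran from 72.4% (ovary 5) over 83.5% to 90.2% (ovary 18) in ovaries, and from 93.2% over 95.6% to 96.3% in testes. The groups stood 3.03 points apart, with means of 82.8% ± 5.09 in ovaries and 95.2% ± 0.926 in testes (SD, n = 9 and 10). At 27019584, the last position, the groups overlapped. Its levels ran from 89.8% to 98.2% in ovaries and from 94.6% to 98.8% in testes, with means of 93.4% ± 2.49 and 97.7% ± 1.18 (SD, n = 9 and 10). There 7 of 9 ovaries lay below the lowest testis, which was testis 7. These last positions made up 12.9%, 10.4% and 3.60% of the summed difference.

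The weight of the middle position depends on the scale. In percent it stood alone, with a difference of -40.9 points against at most -23.4 elsewhere. On the log-odds scale, which compares ratios of methylated to unmethylated reads, the differences at 27019198, 27019279 and 27019461 were nearly alike, at -2.56, -2.46 and -2.65. They were smaller at 27019544 (-1.78), 27019548 (-1.39) and 27019584 (-1.09). Seen as unmethylated reads, 27019461 had 46.9% in ovaries and 5.96% in testes, a ratio of 7.86. That ratio was 9.30 at 27019198 (26.3% against 2.82%) and 8.80 at 27019279 (26.4% against 2.996%), and it was 5.13, 3.58 and 2.87 at the last positions. By either measure the first part of the interval and its middle differed more than its end.

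**Figure D2:**
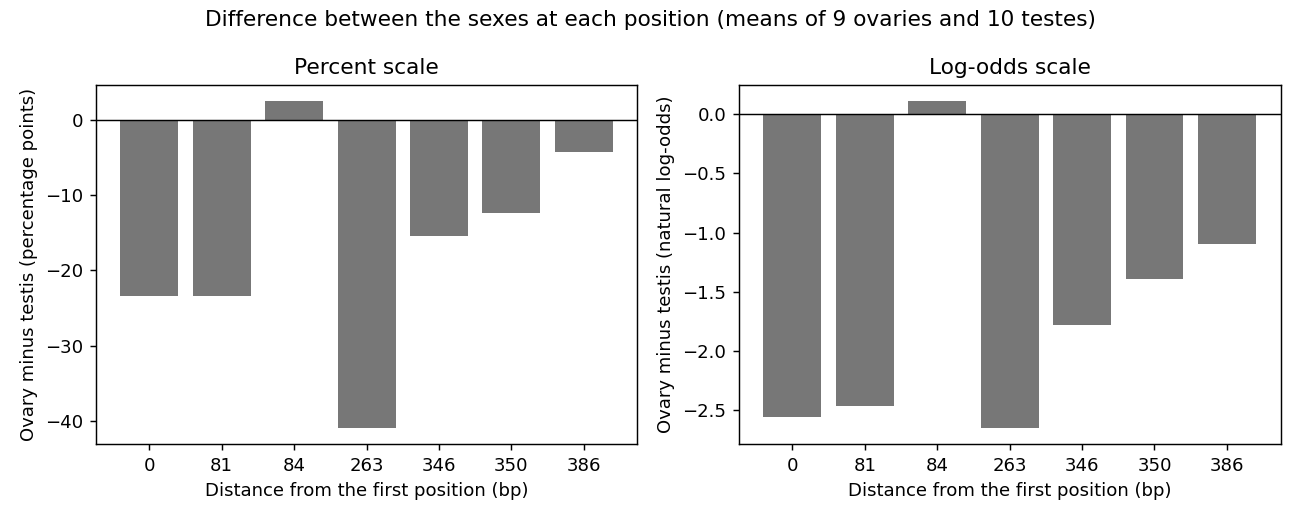
Ovary minus testis at each position (x axis, distance in bp from the first), as bars in percentage points (left) and in natural log-odds (right), from means of 9 ovaries and 10 testes. In points the bar at 263 bp, at -40.9, is the longest, whereas in log-odds it stands at -2.65 beside -2.56 at the first position.

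At 27019282 the groups overlapped. Ovaries averaged 2.93% ± 6.65 and testes 0.460% ± 0.233 (SD, n = 9 and 10). The ovary mean rested on ovary 15, with 20.2%, and ovary 18, with 4.77%, while the other 7 ovaries were at most 0.434% and every testis at most 0.912%. Without ovary 15 the ovary mean was 0.771% ± 1.62 (SD, n = 8). Levels this low also contain unconverted cytosines and base errors, and no conversion control was analysed here.

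When all 150 positions of the series were compared between the sexes by exact permutation with Benjamini-Hochberg adjustment, 23.3% were called lower in ovaries. Of the 7 positions here, 6 were among them, a count that the choice of the region fixes and from which nothing is read. At 5 of the 7 all ovaries lay below all testes. The share of such positions over the series was not counted, so nothing is read from the lack of overlap either. Positions on chromosomes 10 and 18 reached the same smallest p in this permutation as these 5.

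Tests were run on the pattern within a sex, which is not itself the contrast that chose the region. In ovaries this pattern is not independent of that choice. Mean levels in testes varied only from 94.0% to 97.7% over the methylated positions. Ovary steps between those positions therefore largely repeat the sex differences described above. Each position was compared with the next one inside the same fish, by exact sign-flip permutation, in ovaries and in testes separately. Over all regions this gave 282 comparisons, with p-values adjusted over all of them, and 28.4% of the comparisons in ovaries and 31.2% of those in testes passed. Here 4 of 6 passed in ovaries and 5 of 6 in testes. Among them were the step into 27019282, a drop by 70.7 points in ovaries and by 96.5 points in testes over 3 bp, and the step out of it. With positions under 10% in both sexes left out, an alternative chosen after seeing the data, 134 comparisons remained, of which 52.2% passed in ovaries and 53.7% in testes. Here 3 of 5 passed in ovaries, near the share of all regions, and 4 of 5 in testes, above it. With so few pairs nothing is read from these counts.

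The middle position stood below its methylated neighbours in ovaries. It was singled out above by its sex difference, so the p-values of its steps in ovaries are not independent of that choice. Both of its steps are given from the comparisons without low positions, chosen after seeing the data, since the step into it spans 27019282. From 27019279 to 27019461 the level dropped by 20.5 points on average within an ovary (SD 9.36, n = 9, adjusted p = 0.0174 by exact sign-flip permutation). It was lower in 8 of 9 ovaries, and the exception was ovary 15, where it was 0.937 points higher. From 27019461 to 27019544, 83 bp on, the level rose by 27.7 points (SD 7.28, n = 9, adjusted p = 0.0101 by exact sign-flip permutation), with a rise of at least 16.4 points in every ovary. Among all 282 comparisons this step out had an adjusted p of 0.0167 in each sex by exact sign-flip permutation.

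Testes had a dip at the same place, of a few points. From 27019279 to 27019461 the level dropped by 2.97 points (SD 0.945, n = 10, adjusted p = 0.0101 by exact sign-flip permutation), in 10 of 10 testes. From 27019461 to 27019544 it rose by 2.22 points (SD 1.44, n = 10, adjusted p = 0.0101 by exact sign-flip permutation), again in 10 of 10 testes. Among the 6 methylated positions 27019461 was the lowest in 8 of 9 ovaries and in 8 of 10 testes, and 27019584 was the highest in 9 of 9 ovaries and in 7 of 10 testes. The spread from the lowest to the highest methylated position within a fish was 25.7 to 47.7 points in ovaries and 2.22 to 5.75 points in testes.

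The end of the region rose in both sexes. From 27019548 to 27019584 the step was 10.6 points in ovaries (SD 4.07, n = 9) and 2.51 points in testes (SD 1.25, n = 10), upward in every fish, and each had an adjusted p of 0.0167 by exact sign-flip permutation. The ovary step largely repeats the narrowing of the sex difference from -12.4 to -4.32 points. Its p-value is therefore not independent of the choice of the region. Only 4 bp separate 27019544 from 27019548. There the second position was 1.08 points lower in testes (SD 0.765, lower in 9 of 10 testes, adjusted p = 0.0239 by exact sign-flip permutation). In ovaries it was 1.96 points higher on average (SD 2.97, higher in 7 of 9 ovaries, adjusted p = 0.189 by exact sign-flip permutation), which did not pass. Slightly fewer reads were called at 27019548, with a median of 14674.5 in testes against 14852 at 27019544. The part of these missing calls in so small a step was not tested.

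The first positions gave no step beyond the spread between fish. From 27019198 to 27019279 the mean change was -0.102 points in ovaries (SD 5.59, n = 9, p = 0.961, adjusted p = 1 by exact sign-flip permutation) and -0.173 points in testes (SD 0.944, n = 10, p = 0.566, adjusted p = 0.743 by exact sign-flip permutation). Single ovaries differed by between -11.5 and 7.03 points, so the likeness of the means does not hold fish by fish.

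**Figure D3:**
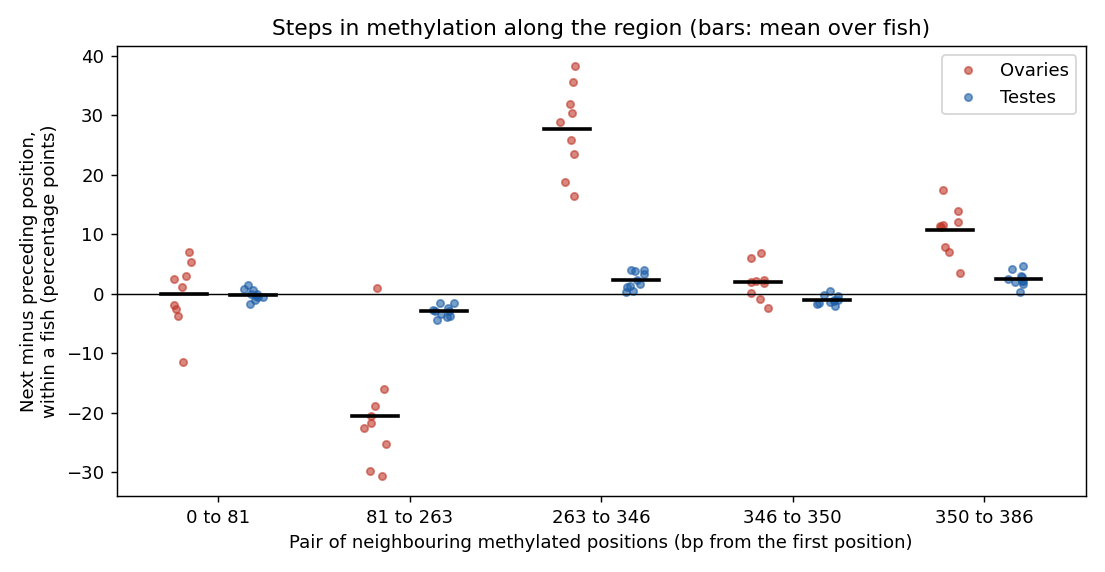
Change in level from one methylated position to the next within a fish, in percentage points (y axis), for the 5 pairs of neighbouring methylated positions (x axis, distances in bp), ovaries left of testes in each pair. Points are fish and bars are means. The step into 263 bp averages -20.5 points in ovaries and -2.97 in testes, and the step out of it averages 27.7 and 2.22 points.

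Fish of one sex also differed in how methylated the region was, and each position was correlated with the mean of the other 6 over fish of that sex. All positions share libraries and largely the same reads, so some relation is built in. Over all regions 287 such relations were computed, and by Pearson's r 37.5% in ovaries and 28.7% in testes passed after adjustment. Here 1 of 7 passed in ovaries and 0 of 7 in testes, with 3 and 0 at an unadjusted permutation p under 0.05. By Spearman's rho none passed in either sex, with 3 in ovaries and 1 in testes at an unadjusted permutation p under 0.05.

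In ovaries 27019548 was the one position that passed. There Pearson's r stood at 0.788, with a p of 0.0103 by exact permutation (0.0344 adjusted), and dropping the 2 ovaries farthest from the median gave 0.810. Spearman's rho stood at 0.817, with a p of 0.0108 by exact permutation (0.0507 adjusted). The call by Pearson's r was lost without ovary 1, 5, 11, 13, 17 or 18 (r from 0.747 to 0.794, adjusted p from 0.0510 to 0.118 by exact permutation). It was also lost at a minimum of 5 reads, with r = 0.173 (adjusted p = 0.795 by exact permutation). At that minimum 27019600, a position at 0 just past the interval, enters the mean of the rest in some ovaries and not in others. The levels of the region's own positions do not change there, so that setting does not test the relation among them. At 27019544 Pearson's r stood at 0.737 (p = 0.0211 by exact permutation, 0.0623 adjusted), or 0.583 once the 2 farthest ovaries were dropped, and Spearman's rho at 0.783 (p = 0.0172 by exact permutation, 0.0668 adjusted). It passed when ovary 17 was left out (r = 0.873, adjusted p = 0.0197 by exact permutation), and r was 0.167 at a minimum of 5 reads. At the last position, 27019584, r was 0.221 (p = 0.570 by exact permutation, 0.744 adjusted).

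The middle position did not pass, with a Pearson's r of 0.625 in ovaries (p = 0.0753 by exact permutation, 0.170 adjusted) and a Spearman's rho of 0.717 (p = 0.0369 by exact permutation, 0.116 adjusted). At a minimum of 5 reads r was 0.809 at 27019461 (adjusted p = 0.0725 by exact permutation) and 0.892 at 27019282 (adjusted p = 0.0684 by exact permutation). There 27019600, from outside the interval, enters the mean of the rest in some ovaries only. These values therefore say nothing on the order of the positions by r. Dropping the 2 farthest ovaries gave r = 0.977 at 27019461, and leaving out ovary 18 alone gave r = 0.810 (adjusted p = 0.0432 by exact permutation), which passed. Leaving out ovary 15 alone lowered r there to 0.441, the lowest of the values without a single fish. Without ovary 18 r was 0.748 at 27019548, so the order by r depended on that fish. At 27019279 no relation was seen in ovaries (r = -0.120 with p = 0.766 and rho = 0.0833 with p = 0.843, both by exact permutation). Without ovary 15 r turned positive there, at 0.375, and it was 0.621 once the 2 farthest ovaries were dropped. In testes r ran from -0.262 at 27019282 to 0.566 at 27019198 (permutation p = 0.0871, adjusted p = 0.194), and levels differed so little there that the relations rest on a few points of methylation.

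Spread between fish was larger than read counting alone gives at every position. In ovaries the SD over fish was 3.51 (27019198) to 8.30 times (27019544) the SD expected from the read numbers at the methylated positions. It was 12.9 times that SD at 27019282, where the SD was 6.65 points with ovary 15 and 1.62 points without it. In testes it was 3.93 (27019282) to 8.24 times (27019584). The 95% Wilson interval of a single fish was at most 6.71 points wide at the methylated positions, and such intervals cover counting error only, since the reads carry no molecular tags that the sources mention. At 27019461, an SD of 7.06 points over ovaries compared with 1.05 points from read counting, and an SD of 1.25 points over testes compared with 0.224.

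Depth also differed between the sexes. Median coverage of the region was 747 reads in the shallowest ovary, 3486 in the median and 25175 in the deepest, against 4554, 14890 and 23173 reads in testes, a ratio of geometric means of 0.248. Within a fish the least covered of the 7 positions had at least 97.7% of the reads of the most covered one, so depth varied between fish and hardly along the region. Only ovaries 11 and 13, with 25175 and 6275 reads, were deeper than any testis, ovary 13 than testis 8 alone, and the 6 methylated positions averaged 76.4% and 79.6% in them. The testis with the fewest reads, testis 8, had 96.1%. Within ovaries no relation of the mean over all 7 positions with log10 coverage was detected. Pearson's r was -0.114 (p = 0.777 by exact permutation, 0.777 adjusted over both sexes) and Spearman's rho -0.0333 (p = 0.948 by exact permutation, 0.948 adjusted). It turned positive without ovary 15 (r = 0.334) and once the 2 ovaries of most extreme depth were dropped (r = 0.494). Within testes r was 0.145 (p = 0.696 by permutation, 0.777 adjusted), or 0.296 once the 2 most extreme testes were dropped and -0.111 without testis 16, and rho was -0.0303 (p = 0.945 by permutation, 0.948 adjusted). What part depth has in the sex difference was not tested.

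**Figure D4:**
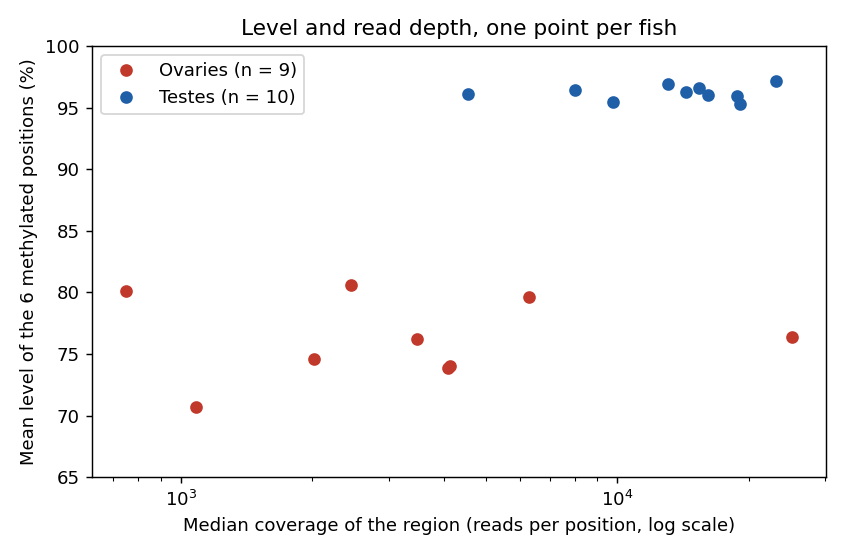
Mean level of the 6 methylated positions in percent (y axis, starting at 65%) against the median coverage of the region in reads per position (x axis, log scale), 1 point per fish. The 2 deepest ovaries, at 6275 and 25175 reads, stand at 79.6% and 76.4%, below all testes, the shallowest of which has 4554 reads.

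The positions that missed the rule held next to no reads. The 8 others in the interval had at most 7 reads in any fish, and the 7 members held all but a trace of the interval's reads (99.996%). Just past the interval, 27019600 reached 10 reads in 4 ovaries and 9 testes, 1 ovary short of the rule. It had 0 methylated of 382 reads over all fish, which allows a level of up to 0.785% for reads pooled over fish, by counting error only and not as a limit for any 1 fish. It lies 16 bp after 27019584, the most methylated position of the region. Its median depth was 8 reads in ovaries and 22.5 in testes, against 3486 and 14885 at 27019584. Only a small part of the reads was therefore called there, and whether those reads stand for the rest was not tested.

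Set beside the regions on chromosomes 10 and 18, also less methylated in ovaries, the chromosome 19 region had the highest mean level in ovaries. A region on chromosome 7 was not compared. Its weighted differences of ovaries from testes were -3.30 to -15.4 points, and no position there was called. Over methylated positions ovaries averaged 76.2% ± 3.33 on chromosome 19, 61.7% ± 5.23 on chromosome 10 and 37.5% ± 10.6 on chromosome 18 (SD, n = 9 each). Testes averaged 96.2% ± 0.598, 89.7% ± 4.08 and 95.9% ± 0.894 (SD, n = 10 each). These levels belong to the contrast that chose all of these regions, so they are given without a test. Within an ovary, the chromosome 19 mean over all positions was 32.6 points above that of chromosome 18 on average (SD 10.7, higher in 9 of 9 ovaries) and 7.38 points above that of chromosome 10 (SD 7.32, higher in 8 of 9 ovaries). Over methylated positions alone it was 14.5 points above chromosome 10 in ovaries (SD 4.90, higher in 9 of 9 ovaries). In testes both differences turned with which positions near 0 entered the means. Those on chromosomes 10 and 18 were sparsely covered and drop out at a minimum of 30 reads. On chromosome 19, 27019282 was deeply covered, with a median of 14948.5 reads in testes, and stays in at that minimum. It is left out only from the means over methylated positions. Chromosome 19 minus chromosome 10 in testes was -1.72 points over all positions (SD 5.48, n = 10), 6.55 points over methylated positions alone (SD 3.84, n = 10) and -7.13 points at a minimum of 30 reads. Chromosome 19 minus chromosome 18 in testes was 2.61 points over all positions (SD 0.692, n = 10), 0.315 points over methylated positions alone (SD 0.811, n = 10) and -13.4 points at a minimum of 30 reads. No order of the regions in testes is therefore given.

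The regions also differed in how evenly the sexes differed along them. On chromosome 18 the difference of the means lay between -52.7 and -61.3 points at all 15 methylated positions. On chromosome 19 it lay between -4.32 and -40.9 points over 6 positions, and on chromosome 10 between -0.964 and -50.4 points over 9 positions. These ranges rest on the contrast that chose the regions, and the unevenness was not tested.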

How the data were processed

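Gonad DNA of 19 zebrafish was treated with bisulfite and sequenced on an Illumina MiSeq, 1 library per fish, per the labels' protocols. Per the submitters' processing notes the tools were Trim Galore 0.4.5, FastQC 0.11.6, Bowtie2 and Bismark, on GRCz11. The deposited files give the counts of methylated and unmethylated reads per position and fish, unnormalized, and the deposited percent methylated equals the ratio of these counts (within 1e-06 points) in all 4476 combinations of position and fish. The series table holds identical counts. No coverage filter by the authors is given in the sources used here, and amplicon counts can carry PCR duplicates.

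Levels were computed from the counts at 10 or more reads per fish. Sex came from the source label. Tested positions under 1000 bp apart formed a region. The sex comparison, run only to give the share of positions called, used beta-binomial weights estimated without sex labels. It took all splits of the fish covered at a position, 92378 where every fish was covered. Steps between positions were tested by exact sign flips, whose smallest p is 0.00391 in ovaries and 0.00195 in testes. Correlations used exact permutation under 10 fish and 100000 resamples otherwise. All p-values are two-sided, adjusted by Benjamini-Hochberg, with a threshold of 0.05. Every position of the region was named by rule. The members and lists were chosen with earlier results of these data known. The tests were checked on simulated counts. Alternatives were coverage minimums of 5, 30 and 100 reads, other weights, medians, pooled reads, log-odds (0.5 added to each count), leaving out positions under 10% in both sexes, and leaving out each fish. The scientific stack was scipy 1.17.1, pandas 2.3.3, matplotlib 3.10.9 and numpy 2.4.6, run under Python 3.11.15.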

Additional observations from a re-analysis of the deposited data

Results flagged for a closer look

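Among 18 sets of values (7 levels, the region mean and the coverage, in each sex), 3 had a fish far from the others. Distance was judged by the gap to the nearest fish over the range. For normally distributed values chance gives about 1 in 20, a rate that levels near 0 and raw read counts need not follow. Ovary 15 had 20.2% methylation at 27019282 (95% Wilson interval 17.5% to 23.2%, 150 of 743 reads), while the next highest ovary, ovary 18, had 4.77% (interval 3.99% to 5.68%, 117 of 2455 reads) and the median of the other 8 was 0.187%. In the same fish 27019279 stood at 67.3%, the second lowest ovary there, and 27019461 at 68.3%, the highest. Ovary 15 also had the lowest coverage of the region, 747 reads at the median, in a library of 2158195 calls; the part of depth in its levels was not tested.

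Testis 7 had 94.6% at 27019584, whereas the other 9 testes lay between 97.5% and 98.8%. Ovary 11 had a median coverage of 25175 reads, whereas the other 8 ovaries had 747 to 6275.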

How the results depend on the processing

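The ovary-to-testis difference of the region mean kept its direction in every setting run. The region was chosen on this difference, so nothing is read from that. Leaving out 1 fish could not reverse the difference, since the sexes did not overlap. The coverage minimums could not change it, since every fish was covered above them at all 7 positions. The difference was -20.8 points with the median over positions in place of -16.8 with the mean. Settings that leave out positions of low coverage or low level change the makeup of the chromosome 10 and 18 means by construction. In testes, chromosome 19 minus chromosome 10 was -1.72 points, 2.70 at a minimum of 5 reads, -7.13 at 30 and at 100 reads, 3.10 with the median and 6.55 without positions under 10%. In testes, chromosome 19 minus chromosome 18 was 2.61 points, -13.4 at 30 and at 100 reads, 0.182 with the median and 0.315 without positions under 10%. In ovaries, chromosome 19 minus chromosome 10 was 4.02 at 30 and at 100 reads and 6.05 to 8.75 without single fish.

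The count of positions related to the rest in ovaries was 1, but 2 on the log-odds scale and 0 to 1 without single fish. It was 0 at 5 reads, where 27019600, outside the interval, enters the mean of the rest in some ovaries only. Correlations with the rest in ovaries at that setting therefore do not test the relation among the region's own positions. The relation of level with depth in ovaries was r = 0.0468 without 27019282; without single fish it was -0.438 to 0.334, and -0.111 to 0.356 in testes. Values near 0 changed sign. For 27019584 with the rest in ovaries, r was -0.146 at 5 reads, -0.0360 on the log-odds scale and -0.0716 to 0.462 without single fish (-0.100 to 0.242 in testes). For 27019279 with the rest it was -0.455 to 0.375 in ovaries and -0.00397 to 0.486 in testes. The step from 27019198 to 27019279 was 0.00305 on the log-odds scale in ovaries, and without single fish -0.993 to 1.32 points in ovaries and -0.353 to 0.00606 in testes. Where no reason is given the cause was not tested. The member pairs called in the step test stayed at 4 in ovaries and 5 in testes on the log-odds scale and without single fish. These counts were the same under each coverage minimum, but the minimums could not change the steps themselves. Every fish was covered above each minimum at every position of the region, so only the adjustment of the p-values differed. Without a conversion control, the lowest levels at 27019282 cannot be told from unconverted cytosine.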
